A study of Danio rerio with 4 samples.

Results

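The splicing factor genes described here are the 113 genes, of 11021 in the deposited table, whose symbols carry the name of a small nuclear ribonucleoprotein (snRNP) protein, a U2-associated SF3A or SF3B subunit, an SR or hnRNP protein, a PRPF, Lsm, U2AF, PUF60, RBM, SART or CWC protein, or SYF2. The rule reads names and no values. The study measured polyadenylated RNA by sequencing in livers dissected from 5 dpf (days post fertilisation) zebrafish larvae. Its labels name 2 libraries, A and B, from larvae of genotype Tg(fabp10:has.UHRF1-GFP), labelled as the high line, and 2 control libraries from Tg(fabp10:nls-mCherry) larvae. In both genotypes the fabp10 promoter, active in hepatocytes, drives the transgene: human UHRF1 fused to GFP in the first, nuclear mCherry in the second. Both UHRF1-high libraries were analysed here and the mCherry control libraries were not, so no value below is a change against the control. What follows is the level of each splicing factor gene in UHRF1-high liver and how far A and B differ. With 2 libraries of 1 group there is no contrast to test, and no p-value is given.

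Splicing removes introns from precursor messenger RNA. The U1 snRNP binds the start of an intron, U2 auxiliary factor (U2AF) and the U2 snRNP bind near its end, and the U4, U5 and U6 snRNPs then join as a tri-snRNP that is rearranged into the active spliceosome. SR proteins and hnRNPs bind the transcript and influence which splice sites are used. Genes for these proteins are active in nearly all cell types, and a bulk liver sample reports them from every cell it holds. In such a sample, fewer cells of a type and less RNA per cell cannot be told apart.

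The values are quantile-normalised, which ties each value to the rank of its gene in that library, and sequencing depth is unknown. It is not stated whether transcript length was divided out. An order between different genes below is therefore an order of deposited values, which can include transcript length. Length cancels when the same gene is set against itself in the other library. Low values are coarse: the 2741 genes below a value of 1 in A take only 41 distinct values, and all 38 splicing factor genes with a mean between 1 and 10 share their value in A with at least 1 other gene. The tissue label was checked against 14 hepatocyte markers, which lay at a median percentile of 98.9 in A and 98.8 in B. Of these 14, 7 were higher in A and 4 higher in B. The others, apoa1b, apoa2 and fabp10a, held the same rank in both libraries and so the same value. At least 2-fold higher in A were 4 (28.6%, against 7.07% of all genes with a mean of at least 1). These were tfa (12758 in A, 2207 in B), serpina1 (4796 and 1567), gc (610.4 and 84.9) and hpx (8.77 and 0.833). None was 2-fold higher in B, where the largest difference was that of cp (34.1 in A, 63.8 in B). Markers of other cells differed between the libraries as well. The summed level of 14 exocrine pancreas markers was 10322 in A and 1147 in B. Of the 14 pancreas markers, 13 were higher in A and 1, ela2l, was higher in B (4.02 in A, 36.4 in B). Summed levels were 537 and 4650 for 22 skeletal muscle markers, 25.4 and 100.9 for 7 macrophage and neutrophil markers, and 326 and 822 for 14 skin markers. Of 12 skin markers with a mean of at least 1, 10 were higher in B. The other 2, krt17 (15.2 in A, 12.7 in B) and zgc:165571 (3.69 and 1.26), were higher in A. Genes of DNA replication, 30 measured, summed to 251 in A and 499.9 in B. The part of any of these in the differences below was not tested.

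Splicing factor genes lay in the upper part of both libraries. The medians over the set were 13.6 for A and 17.4 for B, against medians of 4.36 and 4.41 for all genes, and their median percentile among all genes was 72.4 in A and 76.4 in B. Of the 113 genes, 91 were in the upper 50% of genes in both libraries, and 10 were above the 90th percentile in both. By definition about 50% and 10% of all genes reach these levels in each library, and no larger shares can reach them in both. A mean value under 1 was found for 4 of them (3.54%), against 23.9% of all genes, and a mean of 100 or more for 6 (5.31%, against 6.83%). Most splicing factor genes thus had intermediate values: 38 between 1 and 10, 36 between 10 and 30 and 29 between 30 and 100. In sum they made up 0.337% of all values in A and 0.416% in B.

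The libraries differed little for these genes, and the smaller differences pointed more often to B. Differences are given as A minus B on log2(value + 1) over the 109 splicing factor genes with a mean of at least 1. Of these, 76 were higher in B, or 69.7%, against 51.0% of the 8386 genes above the same filter, and 33 were higher in A, against 48.6% of all genes. The median difference was -0.25, or 1.19-fold, against -0.02 for all genes, and it was -0.14 with a pseudocount of 10 in place of 1. At 1.5-fold, 15 splicing factor genes were higher in B (13.8%, against 16.8% of all genes) and 6 higher in A (5.50%, against 16.5%). At 2-fold, 2 were higher in B (1.83%, against 6.83%) and 4 higher in A (3.67%, against 7.07%). With a pseudocount of 10 none of the 6 reached 2-fold. A difference below 2-fold was thus found for 94.5% of splicing factor genes and for 86.1% of all genes. Across the 109 genes the values of A and B had a Spearman correlation of 0.957, against 0.908 across all genes above the filter, where genes are not independent replicates.

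**Figure D1:**
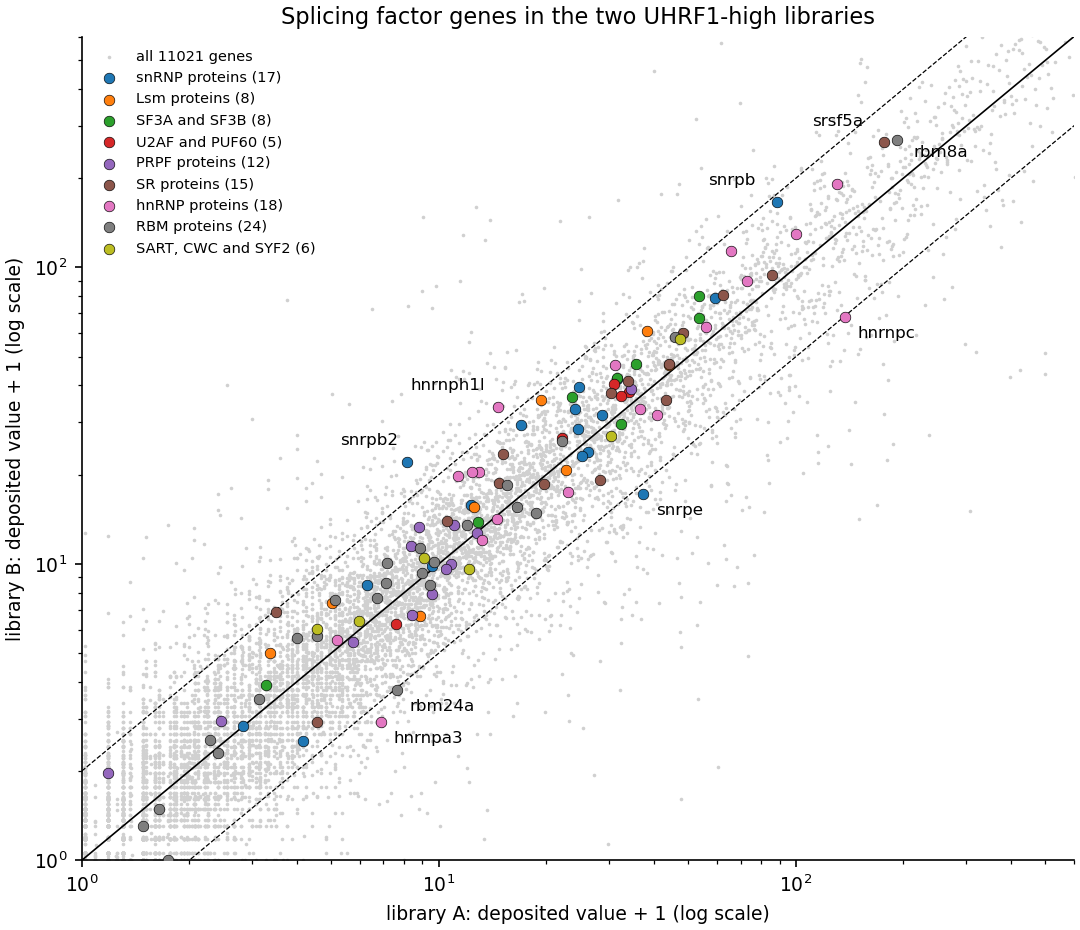
Value + 1 of each gene in library A (horizontal, log scale) and library B (vertical, log scale), with all genes in grey and splicing factor genes coloured by role group and the highest genes beyond the axes. The solid line marks equal values and the dashed lines a 2-fold difference. Of the coloured points with a mean of at least 1, 76 lie above the solid line and 6 lie outside the dashed lines.

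The share of genes higher in B varied with their level, a difference that was not tested. Among splicing factor genes with a mean between 30 and 100, 25 of 29 were higher in B, the median difference being -0.32, while 53.4% of the 1023 other genes at that level were higher in B, with a median of -0.04. Between 10 and 30, 23 of 36 were higher in B (63.9%, against 50.6% of other genes). Between 1 and 10 it was 23 of 38 (60.5%, against 49.4%), with a median of -0.10. The 6 genes above 100 are rbm8a, srsf5a, hnrnpa0b, snrpb, hnrnpab and hnrnpc, of which only hnrnpc was higher in A. With 5 of these 6 higher in B (83.3%), the share among the 747 other genes at that level was 56.2%. Across the 109 genes, the difference had a Spearman correlation of -0.24 with the mean value and 0.17 with the length of the genomic span. Across all genes above the filter these were -0.02 and 0.09.

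For the 17 snRNP protein genes the library medians were 23.6 (A) and 22.8 (B). Of the 17, 12 were higher in B (70.6%, against 51.0% of all genes). Sm proteins form the ring around the RNA of the U1, U2, U4 and U5 particles. The gene of the ring protein SmB, snrpb, led the group with 87.3 in A and 165 in B, or 126 ± 55.0 (mean and SD, n = 2). Not every ring gene was measured, as no snrpf or snrpg is among the 113 genes. Other ring genes had values of 58.3 and 77.9 (snrpd2), 30.6 and 41.1 (snrpd3l), 23.8 and 38.5 (snrpd1), and 23.6 and 27.4 (snrpd3) in A and B. These 5 ring genes were all higher in B, by -0.21 to -0.91 on the log2 scale. The sixth ring gene measured, snrpe, went the other way with 36.4 in A and 16.2 in B, a difference of 1.12. It lies on chromosome 11 from 38886321 to 38891972 in the Zv9 assembly.

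Proteins particular to U1 recognise the 5′ splice site together with the U1 RNA. Their 3 genes were all within 1.5-fold, as were 66.7% of all genes. The RNA-binding protein gene snrpa had 27.6 in A and 30.8 in B, and snrnp70 24.2 and 22.1. The third, snrpc, had 23.0 and 32.4, a difference of -0.48. Genes particular to U2, which pairs with the branch point, differed more. The gene snrpb2, which encodes an RNA-binding U2 protein, had 7.13 in A and 21.1 in B, a difference of -1.44, which is the largest among the 109 genes. It spans chromosome 1 from 52196024 to 52204022. The gene of its partner in the U2 particle, snrpa1, had 16.0 and 28.5, a difference of -0.80.

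SF3A and SF3B are protein complexes that attach U2 to the branch point. Of their 8 measured genes, 7 were higher in B (87.5%, against 51.0% of all genes). Library medians over the 8 were 31.1 and 38.5, and the differences had a median of -0.37. Of the SF3A genes, sf3a2 had 52.7 in A and 79.0 in B, sf3a1 34.8 and 46.4, and sf3a3 11.9 and 12.8. Among SF3B genes the values were 52.4 and 66.7 for sf3b2, 30.6 and 41.3 for sf3b5, and 22.6 and 35.6 for sf3b4. The remaining SF3B genes differed by less: sf3b14, now named sf3b6, whose product contacts the branch site, had 31.5 and 28.6, and sf3b3 had 2.29 and 2.90. A further SF3B gene, phf5a, which the name rule does not include, had 14.7 and 29.1. None of the 8 was 2-fold apart, and 86.1% of all genes were below 2-fold as well.

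U2AF recognises the end of the intron, its large subunit (u2af2) the pyrimidine-rich tract and its small subunit (u2af1) the AG that follows. The gene u2af1 had 30.02 in A and 39.5 in B. Of the large subunit genes, u2af2b had 31.3 and 35.9 and u2af2a 6.59 and 5.28. The related factor PUF60 is encoded by puf60b, with 33.0 and 37.0, and puf60a, with 21.1 and 25.7. All 5 were within 1.5-fold, as were 66.7% of all genes.

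Among genes that match the name rule, 9 belong to the U5 snRNP and the tri-snRNP. These 9 showed no lean to either library, but genes of these particles outside the rule did. Of the 9, 4 were higher in B (44.4%, against 51.0% of all genes), and the median difference was 0.01. All 9 were within 1.5-fold, as were 66.7% of all genes. The gene of PRPF8, the protein at the centre of the spliceosome, had 4.74 in A and 4.47 in B. The gene snrnp200, which encodes the helicase that unwinds U4 from U6, had 8.56 and 8.85. U4/U6 proteins are encoded by prpf31 (11.8 and 11.7), prpf4 (8.59 and 6.94) and prpf3 (1.46 and 1.95). The bridging protein gene prpf6 had 9.997 and 12.6, the U5 gene snrnp40 11.3 and 14.8, and the tri-snRNP genes sart1 and snrnp27 had 29.4 and 25.99, and 25.1 and 22.8. Further genes of these particles, which the name rule does not include, were all higher in B. The gene txnl4a had 24.3 in A and 37.2 in B (1.51-fold), and ppih 10.6 and 17.98 (1.63-fold). Smaller differences were those of eftud2 (6.46 and 7.22), ddx23 (11.1 and 12.02) and usp39 (6.59 and 7.59). The absence of a lean therefore holds only for the genes that match the rule. The division into particles was made with the values known, and no difference between the particles was tested.

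**Figure D2:**
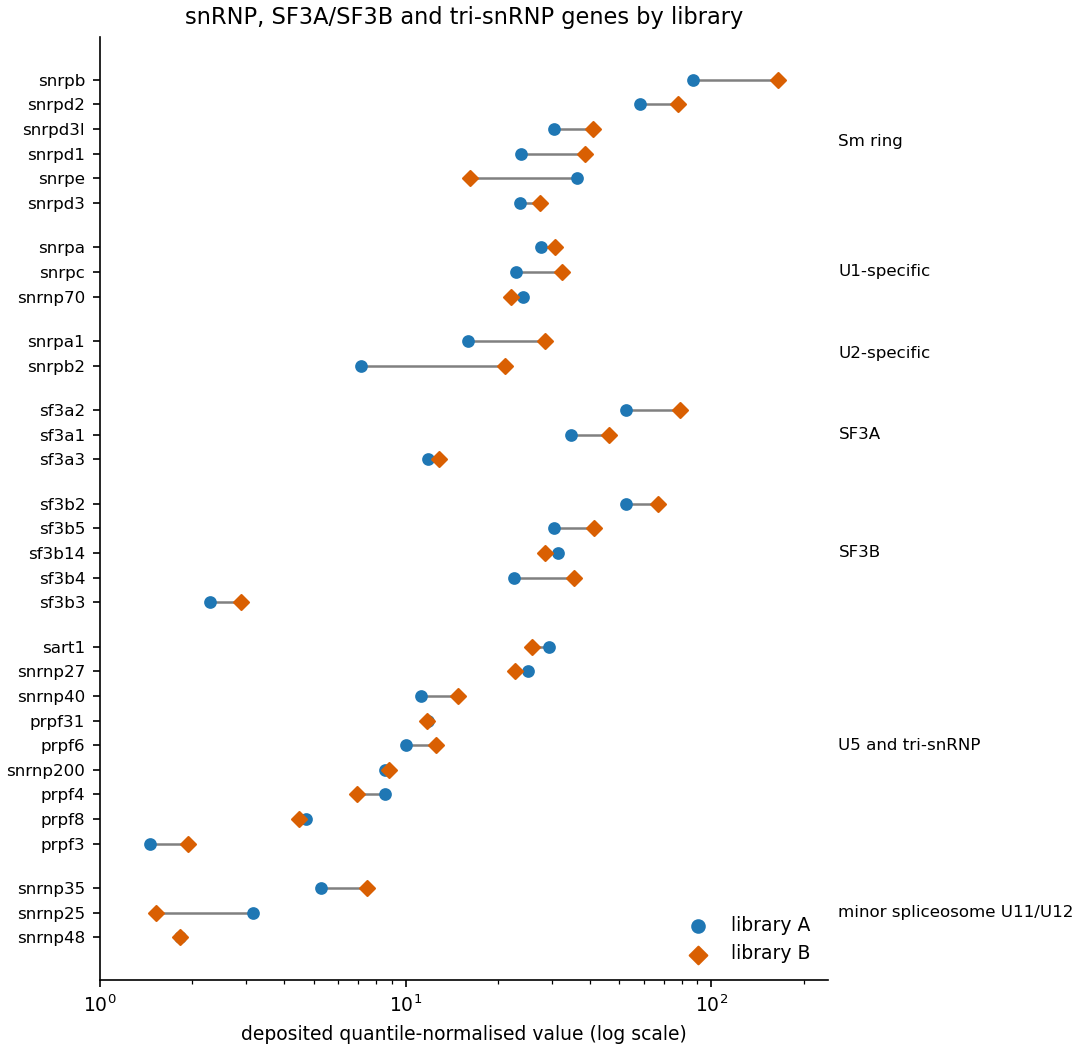
Deposited value (horizontal, log scale) in library A (circles) and library B (diamonds) for 31 splicing factor genes, grouped by the particle they belong to. In the U2-specific and SF3A groups every diamond lies to the right of its circle, and in the U5 and tri-snRNP group the marks lie close together, with 4 of 9 diamonds to the right.

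The other PRPF genes also had similar values in both libraries. All 12 PRPF genes together had library medians of 8.20 and 8.80. Of 11 that passed the filter, 5 were higher in B (45.5%, against 51.0% of all genes), and the median difference was 0.01. The U1-associated protein gene prpf39 had 33.4 and 37.8. The gene prpf18, whose product acts in the second step of splicing, had 9.49 and 8.61, prpf38a 9.79 and 8.997 and prpf38b 7.38 and 10.5. The kinase gene prpf4bb had 7.44 and 5.71. Its copy prpf4ba had 0.183 in A, a value shared by 423 genes, and 0.976 in B.

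The minor spliceosome removes a rare class of introns with its own U11 and U12 particles. The U11/U12 protein genes snrnp35 and snrnp48 had 5.28 and 7.48, and 1.83 and 1.83. For snrnp25 the values were 3.16 in A and 1.53 in B, a difference of 0.72. Among the fixed list of further splicing genes, the minor spliceosome genes zmat5 and rnpc3 had 4.55 and 5.79, and 2.59 and 2.38.

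Lsm proteins form a ring like that of the Sm proteins. The genes lsm4, lsm6 and lsm7 encode parts of the ring on U6 RNA, and also of a cytoplasmic ring for mRNA decay. Their values were 18.3 in A and 34.7 in B for lsm4, 37.3 and 60.2 for lsm6, and 21.7 and 19.7 for lsm7. The cytoplasmic ring gene lsm1 had 4.04 and 6.41. The gene lsm12b had 43.0 and 45.7 and its copy lsm12a 7.83 and 5.67. The lsm14a copies, lsm14ab with 11.5 and 14.6 and lsm14aa with 2.36 and 3.997, encode a protein known for repressing translation rather than for splicing. Of all 8 genes, 6 were higher in B (75%, against 51.0% of all genes), and the median difference was -0.44. None was 2-fold apart, and 86.1% of all genes were below 2-fold as well.

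All 6 SART, CWC and SYF2 genes were within 1.5-fold, as were 66.7% of all genes. Other late-acting proteins are not covered by these names. The gene syf2, whose product associates with the Prp19 complex, had 46.4 in A and 56.5 in B. The gene cwc25, needed around the first step in yeast, had 11.2 and 8.59. The cyclophilin-type gene cwc27 had 8.08 and 9.51, and cwc22, whose product brings the exon junction complex to spliced RNA, 3.55 and 5.04. The gene sart3, whose human product helps to reassemble U4/U6, had 5.00 and 5.43.

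SR proteins bind exonic sequences through RNA recognition motifs and carry a domain rich in arginine and serine. Over their 15 measured genes the library medians were 29.3 and 34.7. Of the 15, 11 were higher in B (73.3%, against 51.0% of all genes), and the median difference was -0.32. The highest was srsf5a, at 176 in A and 263 in B (219.7 ± 61.7). It was followed by srsf6a (84.5 and 93.0), srsf7a (61.7 and 79.9) and srsf9 (47.2 and 59.3). The lowest were srsf2b, with 2.51 and 5.87, and srsf7b, with 3.55 and 1.93. The first of these had a difference of -0.97 on log2(value + 1), just short of 2-fold, while its deposited values were 2.34-fold apart. The gene srsf4 had 14.2 and 22.4, and srsf11 had 18.7 and 17.6. No SR protein gene was 2-fold apart on log2(value + 1), and 86.1% of all genes were below 2-fold as well.

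The hnRNP genes had the widest spread of differences of the 9 role groups. Library medians over the 18 were 26.1 and 31.5, and 11 were higher in B (61.1%, against 51.0% of all genes). The SD of their differences was 0.64, against 0.45 over all 109 splicing factor genes and 0.75 over all genes. The gene hnrnpc, whose product binds uridine tracts, had 136 in A and 67.2 in B (102 ± 48.9), which differ by 1.01. It spans chromosome 2 from 37728014 to 37736976. The gene hnrnpa3 had 5.87 in A and 1.93 in B, a difference of 1.23, on chromosome 9 from 1682281 to 1691992. In the opposite direction hnrnph1l, a relative of the G-tract binding hnRNP H, had 13.6 in A and 32.8 in B, a difference of -1.21, on chromosome 21 from 28913654 to 28925789. Its relative hnrnph1 had 4.18 and 4.52.

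Other hnRNP genes with high values were hnrnpa0b (129.5 in A, 190.0 in B), hnrnpab (99.0 and 128), hnrpdl (64.6 and 113) and hnrnpa1 (72.1 and 88.7). The gene of hnRNP L, which binds CA repeats, is listed as hnrpl and had 55.2 and 61.9. The genes hnrnpub (11.4 and 19.4), hnrnpr (11.997 and 19.3) and hnrnpm (30.2 and 45.7) were higher in B, the first by -0.73 and hnrnpr by -0.65 on the log2 scale. In contrast hnrnpk (39.7 and 30.8), hnrnpl2 (21.98 and 16.5), hnrnpd (35.6 and 32.2), hnrnpul1 (12.2 and 11.03) and hnrpkl (13.5 and 13.2) were somewhat higher in A. None of these 5 reached 1.5-fold.

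The 24 RBM genes are named for an RNA recognition motif, and not all of them act in splicing. Their library medians, 6.39 and 7.54, were the lowest of the 9 role groups. A higher value in B was found for 16 of the 21 that passed the filter (76.2%, against 51.0% of all genes). The highest value among all 113 genes was that of rbm8a, a core gene of the exon junction complex, with 191 in A and 267 in B (229 ± 54.0). Its partner in that complex, magoh, had 79.9 and 123. The splicing regulators rbm39a, rbm39b, rbm5 and rbm25 varied little: 17.7 and 13.8, 10.98 and 12.5, 8.67 and 9.16, and 8.46 and 7.50. The gene rbm34 had 14.5 and 17.4. The gene rbm17, which encodes the splicing factor SPF45, had 6.16 and 9.10. Nucleolar members known for ribosome synthesis, rbm28 and rbm19, had 7.83 and 10.3, and 2.14 and 2.51.

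Of the 21 RBM genes above the filter, 1 was at least 2-fold higher in A (4.76%, against 7.07% of all genes) and none in B. The gene rbm24a, known for splicing in muscle and heart, had 6.63 in A and 2.75 in B, a difference of 1.02, on chromosome 19 from 47779148 to 47811918. The skeletal muscle markers lay the other way: all 20 of them with a mean of at least 1 were higher in B. Which cells gave the rbm24a values was not tested. The lowest RBM genes were rbm22, rbm45 and rbm38, all under the filter. The spliceosome gene rbm22 had 0.741 in A, while in B it is 1 of 449 genes listed at 0. Of the others, rbm45 had 0.487 and 0.304, and rbm38 had 0.651 and 0.487. Just above the filter lay rbm15b, with a mean of 1.35, and rbm41, with 1.41, and just below it prpf4ba, with 0.579. At the 2-fold threshold on log2(value + 1), hnrnpc (2.01-fold) and rbm24a (2.03-fold) lay just inside and srsf2b (1.96-fold) and snrpb (1.88-fold) just outside.

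**Figure D3:**
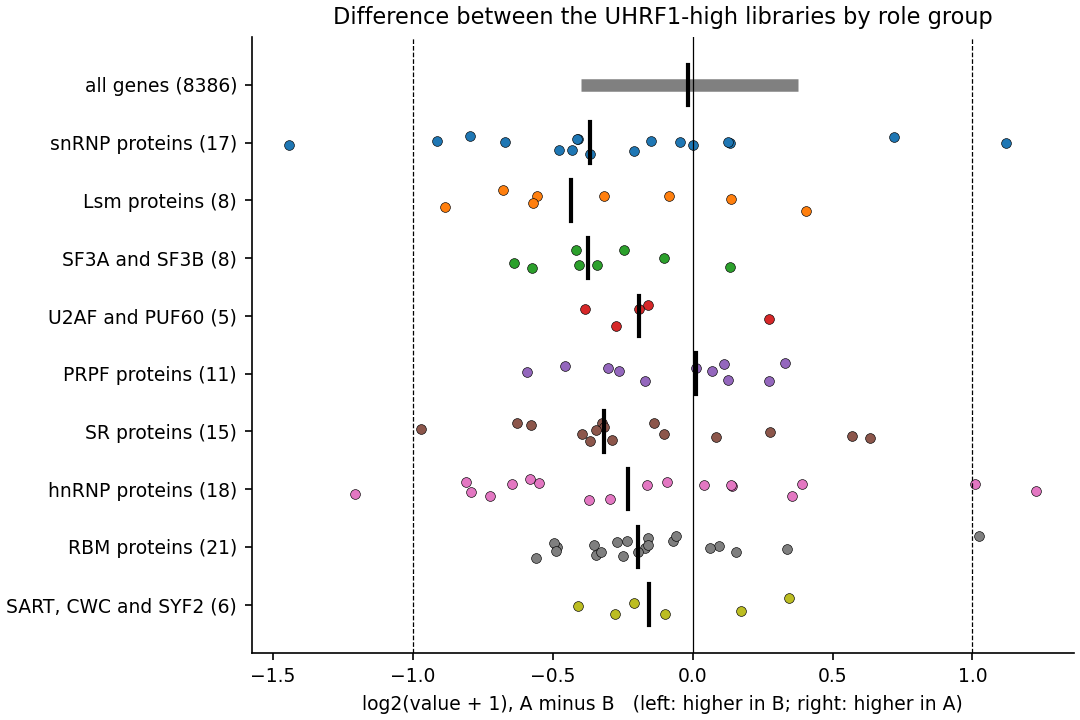
Difference between the libraries, log2(value + 1) of A minus B, for the 109 splicing factor genes with a mean of at least 1, by role group; numbers in brackets count genes, black bars are medians, and the grey bar spans the middle 50% of all genes. Points left of 0 were higher in B, and the 6 points beyond the dashed lines differed at least 2-fold. The medians lie between -0.44 for Lsm genes and 0.01 for PRPF genes.

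Zebrafish carry many genes as duplicates from the genome duplication of teleost fish, and 14 duplicated pairs had both copies among the splicing factor genes. The copies were unequal in most pairs and in the same order in both libraries. The same copy was higher in A and in B in 13 of 14 pairs, and in 8 pairs it was at least 4-fold higher in both libraries. The exception was sfrs3a and sfrs3b (now srsf3a and srsf3b), with 29.3 and 42.2 in A and 36.7 and 34.7 in B. With a Spearman correlation of 0.957 between the libraries, most unequal pairs of any splicing factor genes would keep their order. Pairs that are not duplicates were not compared. Reads of near-identical copies may have been split or lost in the counting, which is not described in the sources used here, and copies may differ in transcript length, so a ratio between copies is uncertain. Split or lost reads would also touch the values of each copy in A and in B.

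Among SR protein pairs the a copy had the higher value in 5 of 6. For srsf7a over srsf7b the ratio was 17.4 in A and 41.3 in B. The ratio of srsf2a to srsf2b was 17.2 and 7.86, that of srsf5a to srsf5b 6.44 and 14.5, and that of srsf6a to srsf6b 8.83 and 7.199 (srsf6b itself had 9.57 and 12.9). The least unequal of these 5 was srsf1a, with 32.8 and 40.3, against 13.8 and 17.8 for srsf1b, a ratio of 2.39 and 2.27. In the srsf5 pair the copies went opposite ways between the libraries: srsf5a was lower and srsf5b higher in A (27.3 in A and 18.1 in B). Copies went the same way between libraries in 7 of the 14 pairs.

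In the 8 pairs outside the SR proteins the order of the copies was mixed. The gene hnrnpa0b had 12.6 times the value of hnrnpa0a (10.3 and 18.8) in A and 10.1 times in B. The ratio of lsm12b to lsm12a was 5.49 and 8.06, and that of u2af2b to u2af2a 4.75 and 6.80. The ratio of lsm14ab to lsm14aa was 4.88 and 3.65. Of the rbm14 copies, known from nuclear paraspeckles, rbm14a had 7.96 and 8.32 and rbm14b 2.996 and 4.61. The largest change in ratio was that of prpf4bb to prpf4ba, 40.7 in A and 5.85 in B, where the lower copy was near the lowest values. Beside the sfrs3 copies, the pairs under 2-fold apart in both libraries were puf60b and puf60a (1.57 and 1.44) and rbm39a and rbm39b (1.61 and 1.11). The ratio changed between the libraries by less than 1.5-fold in 9 of the 14 pairs.

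**Figure D4:**
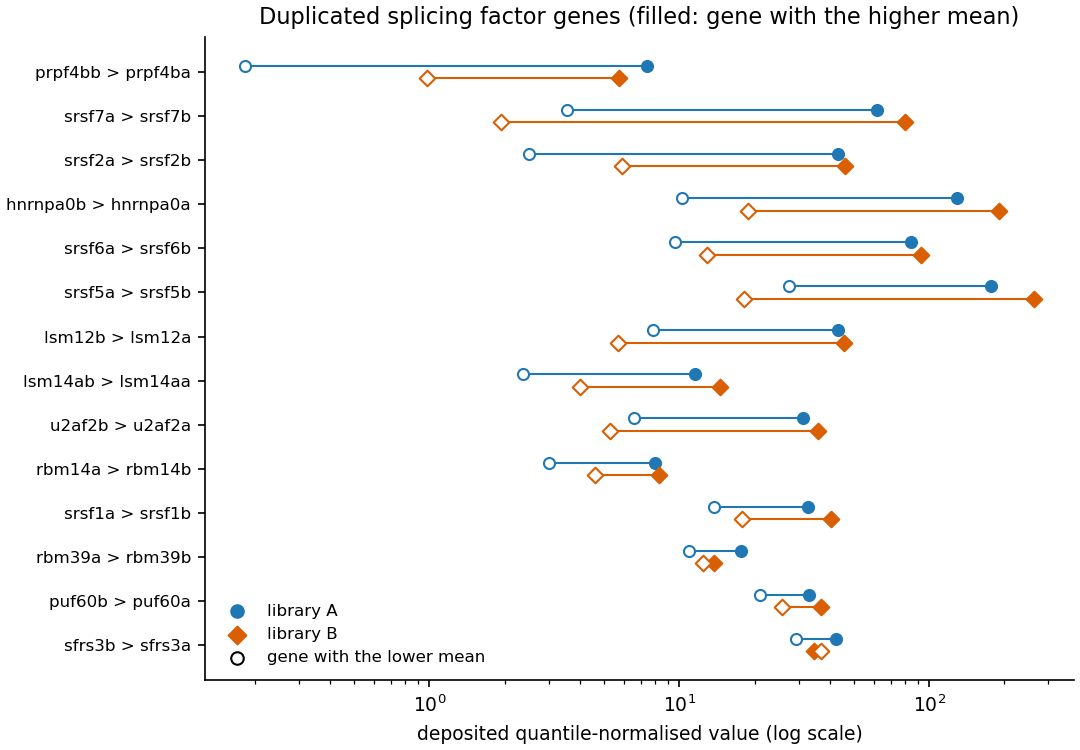
Deposited value (horizontal, log scale) of both copies of 14 duplicated splicing factor genes in library A (blue circles) and library B (orange diamonds); filled marks are the copy with the higher mean and open marks the other copy. Filled marks lie to the right of open marks in both libraries in 13 pairs, the exception being sfrs3b and sfrs3a.

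The splicing factor genes lay on 24 chromosomes, with at most 9 on any of them. A few lay side by side. The genes rbm4.3, rbm4.2 and rbm4.1 follow each other on chromosome 7 between 23959986 and 23973825, and in that order their values were 45.0, 21.1 and 6.12 in A and 57.4, 24.97 and 7.59 in B, lower at each step along the array. On chromosome 10, hnrnpd ends 215 bases before hnrpdl begins (5020623 to 5027928). The first had 35.6 in A and 32.2 in B, and hnrpdl 64.6 and 113, a difference of -0.79. On chromosome 5, srsf7a (38495772 to 38499306) lies 1011 bases from hnrpl (38500317 to 38512089), and both were higher in B. The spans of 4 splicing factor genes (rbm5, rbm12, sf3b3 and snrnp35) overlap another gene of the table with a span of at most 500000 bases. A further 17 overlap only genes listed with a longer span. The sources used here do not say whether strand was used in counting, so reads of overlapping genes cannot be told apart.

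Further genes of the splicing pathway, taken from lists that leave out the 113 genes, were also mostly within 2-fold. Of 48 other spliceosome genes, 38 were higher in B (79.2%, against 51.0% of all genes). None was 2-fold apart, and 86.1% of all genes were below 2-fold as well. At 1.5-fold, 11 of the 48 were higher in B (22.9%, against 16.8% of all genes). Their median difference was -0.31. The highest were the RNA helicase genes ddx5 (141 in A, 243 in B) and ddx39b (86.9 and 119), and bud31 (39.1 and 55.7). In the exon junction complex list 7 of 9 genes above the filter were higher in B (77.8%, against 51.0% of all genes). By at least 1.5-fold it was 2 of them (22.2%, against 16.8%), which are magoh and acin1a (26.3 and 51.6). The highest levels in the list were those of magoh, sap18 (77.3 and 103) and rnps1 (76.2 and 75.5). For assembly of snRNPs, 7 of 9 were higher in B (77.8%, against 51.0% of all genes). The assembly gene smn1 had 13.2 and 14.9, strap 41.9 and 55.6, gemin8 26.6 and 25.3, and the gene listed as icln 18.6 and 21.3. Of the kinases and the importer of SR proteins, 5 of 7 genes were higher in A, by 0.32 at most. The share higher in B was 28.6%, against 51.0% of all genes. Their median difference was 0.10. The kinase gene dyrk1aa had 15.2 and 13.9. The SR protein kinase gene srpk1a had 5.405 and 5.57, the kinase gene clk4b 9.30 and 8.59, and the importer gene tnpo3 12.3 and 11.2.

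Other regulators of alternative splicing, 33 above the filter, were higher in B in 21 cases (63.6%, against 51.0% of all genes). Their median difference was -0.17. The highest were khdrbs1a (82.1 in A, 135 in B), pcbp2 (75.9 and 101) and the gene of TAF15, listed as zgc:158363 (64.4 and 73.6). At least 2-fold higher in B was 1 of the 33 (3.03%, against 6.83% of all genes), syncrip (27.8 and 68.9). At least 2-fold higher in A was 1 as well (3.03%, against 7.07%), rbfox1l (49.96 and 22.8). The polypyrimidine tract binding protein genes ptbp1a and ptbp1b had 7.81 and 6.71, and 6.997 and 9.997. For the DNA replication genes 25 of 29 were higher in B (86.2%, against 51.0% of all genes) and the median difference was -0.76. Library medians of these genes were 4.92 and 7.53.

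**Figure D5:**
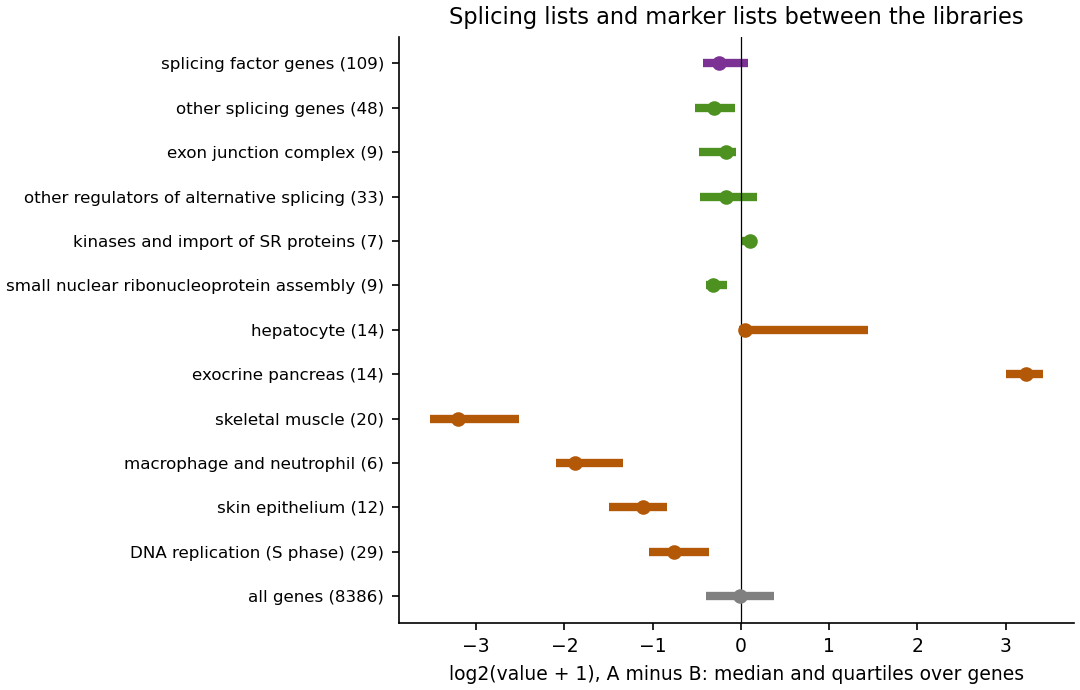
Median (points) and middle 50% (bars) of the difference between the libraries, log2(value + 1) of A minus B, over the genes of each list with a mean of at least 1; the number of genes is in brackets. Splicing factor genes are purple, other splicing lists green, marker lists brown and all genes grey. The medians of the splicing lists lie between -0.31 and 0.10, while those of exocrine pancreas and skeletal muscle markers lie at 3.23 and -3.21.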

How the data were processed

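Polyadenylated RNA was extracted with Trizol and fragmented before adapter ligation, per the labels' protocols. Per the submitters' processing notes, CASAVA 1.7 and the Zv9 (danRer7) build were used. The signal values deposited by the authors are quantile-normalised, as the table's name says; how reads were counted, with which annotation, filter and strand setting, and what "mult" in the column names means, is not given in the sources used here. Columns were matched to samples by title, and 0 other per-sample columns were left unused. The series text speaks of small RNA, where the labels give polyadenylated RNA, and of batches that it does not assign to libraries.

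Members were matched by name, and of 113 symbols, RefSeq's list for GRCz12tu holds 105 as current and 7 as older names, and 1 was unmatched. Starts are counted from 1. Means and SDs are over 2 libraries (n = 2), which the labels do not say came from separate clutches. Differences use log2(value + 1), which understates those of low genes, over genes with a mean of at least 1. No test was fitted, and no interval can be given without depth. Calculations used Python 3.11.15, pandas 2.3.3 and scipy 1.17.1, and were tested on simulated data. Duplicates are members whose names differ in a last a or b, leaving out 2 of 16 such pairs that are separate genes. The named genes are the highest and lowest members of each role group, those 2-fold apart, duplicates, members near a threshold, and the top 3 genes of each other list. Further genes were named after their values were seen, as were the particles and the pairs left out. Members and lists were chosen with earlier results of these data known.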

Additional observations from a re-analysis of the deposited data

How the results depend on the processing

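A pseudocount of 10 took the count of splicing factor genes 2-fold apart from 4 to 0 for A and 2 to 0 for B. Over all genes the shares also fell, from 7.07% to 2.24% for A and from 6.83% to 1.60% for B. That scale shrinks differences, most of all in low genes. A filter at a mean of 10, which leaves 71 of the genes, gave 2 in A and 2 in B. Over all genes above that filter the shares were 8.57% in A and 6.38% in B. The other alternatives for these counts (a pseudocount of 0.1, no filter, median scaling) gave 4 or 5 in A and 2 or 3 in B. Their shares over all genes were 5.86% to 10.6% in A and 5.71% to 10.2% in B. The median difference stayed towards B under all 6 alternatives, from -0.14 with a pseudocount of 10 to -0.30 with a filter at a mean of 10. A change of pseudocount could not have reversed it, since it leaves the direction of each gene as it is. Median scaling could hardly move it, since the values were already quantile-normalised. Without the RBM genes the median percentile was 79.7 instead of 74.2. Leaving out 1 library gave percentiles of 72.4 to 76.4, and role group medians of 22.8 to 23.6 for snRNP, 14.9 to 17.1 for Lsm, 31.1 to 38.5 for SF3A and SF3B, 30.02 to 35.9 for U2AF and PUF60, 8.20 to 8.80 for PRPF, 29.3 to 34.7 for SR, 26.1 to 31.5 for hnRNP, 6.39 to 7.54 for RBM, and 9.05 to 9.62 for SART, CWC and SYF2 genes. Counts between the libraries have no value with 1 library left out. No paired analysis was possible because values of 1 group were analysed, and its libraries, A and B, share no replicate number with another group. Ties among low values limit what can be read from genes under a value of 10.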

Other observations

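Among regulators of tissue-specific splicing outside the named families, esrp2, an epithelial regulator known from adult mouse liver, stood at 14.3 (A) and 13.7 (B), while its relative esrp1 had 0.487 and 0.609. The muscle regulator gene rbfox1l had 49.96 in A and 22.8 in B, the same direction as rbm24a (6.63 and 2.75). All 20 skeletal muscle markers above the filter were higher in B. Which cells gave the rbfox1l and rbm24a values was not tested. The genes mbnl1, celf2 and qkia, regulators known from muscle and brain, had means under 1, as did mbnl3, celf4 and qki2. Other genes of the same names lay higher, celf1 with 12.8 in A and 10.6 in B and celf3a with 8.43 and 9.08. The muscle regulator mbnl2 had 5.06 and 3.19.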
